A study of Mus musculus with 4 samples.

Results

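The genes described here are 38 listed interferon-stimulated genes, antiviral effectors and their regulators, read in naive CD8 T cells from the spleens of mice with and without Klf13. Each gene was taken from the probe set that the platform annotation pairs with its symbol alone, and where there were several, from the brightest over the 4 arrays; 34 of the 38 had such a probe set, out of 19938 genes measured in all. Gbp2, Igtp and Isg15 had only probe sets shared with another gene, and Ifi44 was paired with no probe set, so these 4 were not analysed as single genes. The members were listed for their known response to interferon, with earlier results of these data known, and were sorted into families for the description.

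The knockout and the wild-type group had 2 arrays each, all from BALB/c mice, and the labels name no treatment. The cells were sorted by flow cytometry, and 200 ng of RNA per sample, with an RNA integrity number above 9, was labelled for 1-colour Affymetrix arrays. The sources used here do not give how the Klf13 allele was made, the age or sex of the mice, or whether the samples of a genotype came from separate animals. The p-values thus rest on a spread between samples that may be technical.

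Interferons signal through surface receptors and the kinases JAK1, JAK2 and TYK2 to STAT proteins. Type I interferon acts on genes that carry the interferon-stimulated response element (ISRE), to which STAT2 and IRF9 are recruited, and interferon gamma acts through the gamma-activated site (GAS). The genes switched on in this way encode proteins that bind viral RNA, block translation, attack parasite vacuoles or sense nucleic acids, and resting T cells carry many of their transcripts at a low, tonic level. Klf13 is a zinc-finger factor of the SP/KLF family, whose members bind GC-rich and CACCC sequences. The series asks how the loss of Klf13 bears on memory-like CD8 T cells.

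All values below are log2 probe-set values, and a difference is the mean of the knockout arrays minus the mean of the wild-type arrays. A gene was called when its limma p, adjusted by Benjamini-Hochberg over all 19938 genes, was under 0.05. Klf13 read 5.46 and 5.43 on the knockout arrays and 7.01 and 7.15 on the wild-type arrays (difference -1.63, SE 0.10, limma adjusted p = 3.75e-05), so its transcript was lower in the arrays labelled knockout; the deleted part of the gene is unknown here, so whether the probe set lies in it is unknown too. Of 12 genes of CD8 T cell identity, 9 were measured, and all 9 lay above the upper quartile of the probe sets on every array. None was called, and 2 had an unadjusted limma p under 0.05, both lower, beside 8.75% of all genes on that side. Cd8a read 11.11 and 11.14 in the knockout and 11.25 and 11.12 in the wild type.

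Ifit2 and Ifit3, which encode RNA-binding antiviral proteins with tetratricopeptide repeats, were the members that fell in the knockout, by 1.5-fold and 1.64-fold. No member rose. The other 32 members did not pass. The 2 calls among 34 members, 5.88%, stand beside 1.05% of all genes called lower and 2.25% called in either direction. Before adjustment, 9 of the 34 members were below 0.05 on the lower side and 1 of the 34 on the higher side. Over all 19938 genes these counts were 1744 (8.75%) and 1566 (7.85%).

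Ifit3 is a partner of other IFIT proteins in antiviral complexes. It read 3.56 and 3.44 in the knockout and 4.32 and 4.12 in the wild type. The knockout values were the lower pair, and the difference of -0.72 (SE 0.10, limma adjusted p = 0.00684) exceeded the gaps between arrays of a genotype. These are dim values: on each array Ifit3 lay under the median of all probe sets, which was 4.31 to 4.37. The call held without each array in turn, with limma adjusted p between 1.69e-04 and 0.0367. In each such fit 1 genotype has a single array, which is assumed to vary like the arrays of the other genotype, and without either wild-type array the SE was the same 0.166 for every member.

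Ifit2, an RNA-binding protein tied to the restriction of several viruses and to cell death, read 5.94 and 6.17 in the knockout and 6.58 and 6.72 in the wild type. The groups did not overlap (difference -0.59, SE 0.11, limma adjusted p = 0.0231). The call was lost without knockout replicate 1 (-0.47, limma adjusted p = 0.092) and without wild-type replicate 2 (-0.52, limma adjusted p = 0.0767).

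Ifit1, which binds viral RNA that lacks the host's cap methylation, read 4.82 and 4.89 in the knockout and 5.11 and 4.92 in the wild type. The groups again did not overlap, but wild-type replicate 2 stood only just above the knockout arrays, and the difference of -0.16 did not pass (SE 0.10, limma adjusted p = 0.480). In the RefSeq order on chromosome 19 the protein-coding genes run Ifit2, Ifit3, Ifit1bl1, Ifit3b, Ifit1bl2 and Ifit1, so the called pair are direct neighbours. Ifit3b, a close copy of Ifit3, read 2.51 and 2.49 against 2.52 and 2.78 (difference -0.15, limma adjusted p = 0.533). Probe sets of copies this alike can bind each other's transcripts, so the split between Ifit3 and Ifit3b is uncertain.

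The promoters of these genes are shown because the pair that fell lie side by side and because an ISRE is the element through which type I interferon acts on them. The sequences are from RefSeq for the mouse assembly GRCm38.p6, read 5′ to 3′ in the direction of the gene and ending at the base before the most upstream annotated start. Capitals mark each match to the ISRE core, searched as GAAA, any 2 bases and GAAA again, or to its reverse complement.
Ifit3 (chr19:34583279-34583528, plus strand): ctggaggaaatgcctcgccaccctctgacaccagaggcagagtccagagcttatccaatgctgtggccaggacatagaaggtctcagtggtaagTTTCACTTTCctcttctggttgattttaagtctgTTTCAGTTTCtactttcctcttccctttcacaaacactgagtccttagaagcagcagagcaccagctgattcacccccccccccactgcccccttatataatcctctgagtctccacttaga
Ifit2 (chr19:34550444-34550693, plus strand): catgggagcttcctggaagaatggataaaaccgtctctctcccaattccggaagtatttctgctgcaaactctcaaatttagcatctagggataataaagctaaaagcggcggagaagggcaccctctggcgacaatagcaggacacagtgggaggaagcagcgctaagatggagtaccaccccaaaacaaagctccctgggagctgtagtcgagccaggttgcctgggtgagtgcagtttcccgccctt
Ifit1 (chr19:34640639-34640888, plus strand): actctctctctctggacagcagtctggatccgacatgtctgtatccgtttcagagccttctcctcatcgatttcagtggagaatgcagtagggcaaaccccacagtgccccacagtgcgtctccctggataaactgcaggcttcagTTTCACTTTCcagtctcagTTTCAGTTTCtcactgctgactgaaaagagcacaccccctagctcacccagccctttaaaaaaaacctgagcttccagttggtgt

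Ifit3 and Ifit1 each held 2 ISRE cores in these 250 bases, with the same letters in both genes: TTTCACTTTC, then TTTCAGTTTC nearer the start. Counted from the start, the matches began at -156 and -122 in Ifit3 and at -104 and -85 in Ifit1. The Ifit2 window held no match, which says only that these letters are not there; it held a GAS match (TTC, any 3 bases, then GAA) that began at -241. The windows of Ifit3 and Ifit1 share the letters, and an element of Ifit2 outside its window would not be seen. The part of the element in the differences of these genes was not tested.

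Another 9 measured members held ISRE cores upstream of their start, and they are shown in stretches of 40 bases to set the element beside genes that were not called.
Oas1a (chr5:120907526-120907565, minus strand): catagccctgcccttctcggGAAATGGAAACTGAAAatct
Oas3 (chr5:120777710-120777749, minus strand): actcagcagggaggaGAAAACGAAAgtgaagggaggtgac
Gbp3 (chr3:142559987-142560026, plus strand): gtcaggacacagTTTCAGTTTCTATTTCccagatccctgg
Irgm1 (chr11:48871423-48871462, minus strand): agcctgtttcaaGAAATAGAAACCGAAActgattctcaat
Slfn5 (chr11:82951932-82951971, plus strand): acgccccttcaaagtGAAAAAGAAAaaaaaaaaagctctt
Slfn8 (chr11:83020834-83020873, minus strand): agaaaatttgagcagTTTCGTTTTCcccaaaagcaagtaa
Stat2 (chr10:128270261-128270300, plus strand): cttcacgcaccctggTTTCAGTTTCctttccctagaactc
Bst2 (chr8:71537575-71537614, minus strand): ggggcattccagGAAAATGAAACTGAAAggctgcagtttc
Rsad2 (chr12:26456548-26456587, minus strand): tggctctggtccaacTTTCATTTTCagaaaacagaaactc

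In Oas1a, Gbp3, Irgm1 and Bst2 the element appeared as a pair of matches that overlap. Of the 11 measured members with an ISRE core in the bases before their most upstream start, 7 had a negative difference, beside 45.9% of all genes and 64.8% of the brighter genes on these arrays, and 1, Ifit3, was called, beside 2.25% of all genes. Promoters were found for 28 of the 38 members, and 16 of these genes (57.1%) held the ISRE core in a window of 250 bases before to 50 after an annotated start, beside 3.99% of all 27025 genes in the table. Mx1, Mx2, Oas2, Usp18, Parp14, Ifi27l2a, Iigp1, Dhx58, Zbp1 and Rtp4, all measured, had no promoter there. They were not searched, so the text does not say whether they carry an ISRE. The members were listed as interferon-responsive, so that share describes the list and not these arrays. The GAS letters occurred in 7 of the 28 member genes and in 9.55% of all genes. The GC box GGGCGG, a sequence bound by SP/KLF proteins, occurred in 42.9% and 38.2%, and the CACCC box, searched as CACCC on both strands, in 67.9% and 59.8%. GAS and ISRE matches can share bases, as they do in Bst2, and a match of letters is not evidence of binding.

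The Mx family encodes dynamin-like GTPases that trap incoming viruses; many inbred mouse strains, BALB/c among them, carry a defective Mx1. Mx1 read 3.39 on both knockout arrays and 3.74 and 3.78 on the wild-type arrays (difference -0.36, SE 0.09, limma adjusted p = 0.0760). Mx2 read 2.84 and 3.41 in the knockout and 3.66 and 3.56 in the wild type (difference -0.49, SE 0.16, limma adjusted p = 0.162). These are dim values: on each array both genes lay under the median of all probe sets, which was 4.31 to 4.37. On knockout replicate 1, Mx2 also lay under the lower quartile of 3.13. In both genes the groups did not overlap, with the knockout lower, beside 23.2% of all genes. The knockout arrays of Mx2 lay 0.57 apart, the widest such gap of any member. Neither gene passed, and both were called after each array was centred on its median (-0.45 and -0.57, limma adjusted p = 0.0167 and 0.0254). The Mx2 difference was -0.20 without knockout replicate 1 (limma adjusted p = 0.344) and -0.77 without knockout replicate 2 (0.0209).

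The OAS family, enzymes that answer double-stranded RNA by making short adenylate chains that activate RNase L, was split in direction. Oas2 read 4.37 and 4.49 in the knockout and 4.77 and 4.75 in the wild type (difference -0.33, SE 0.09, limma adjusted p = 0.115). Oasl2, an OAS-like protein, read 4.61 and 4.76 in the knockout and 4.30 and 4.37 in the wild type (difference 0.35, SE 0.10, limma adjusted p = 0.114). These are opposite differences of like size, each without overlap of the groups, and neither passed.

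Oas1a read 4.92 and 4.43 in the knockout and 4.63 and 4.45 in the wild type, with knockout replicate 1 above and knockout replicate 2 below the wild-type pair (difference 0.14, limma adjusted p = 0.700). Oas3 and Oasl1 overlapped between the groups, with differences of 0.06 and -0.05. Over the family, 2 of 5 differences were negative, though Oas3 turned negative after centring on array medians (-0.0231) and Oasl1 positive after a further quantile normalization (0.0147).

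**Figure D1:**
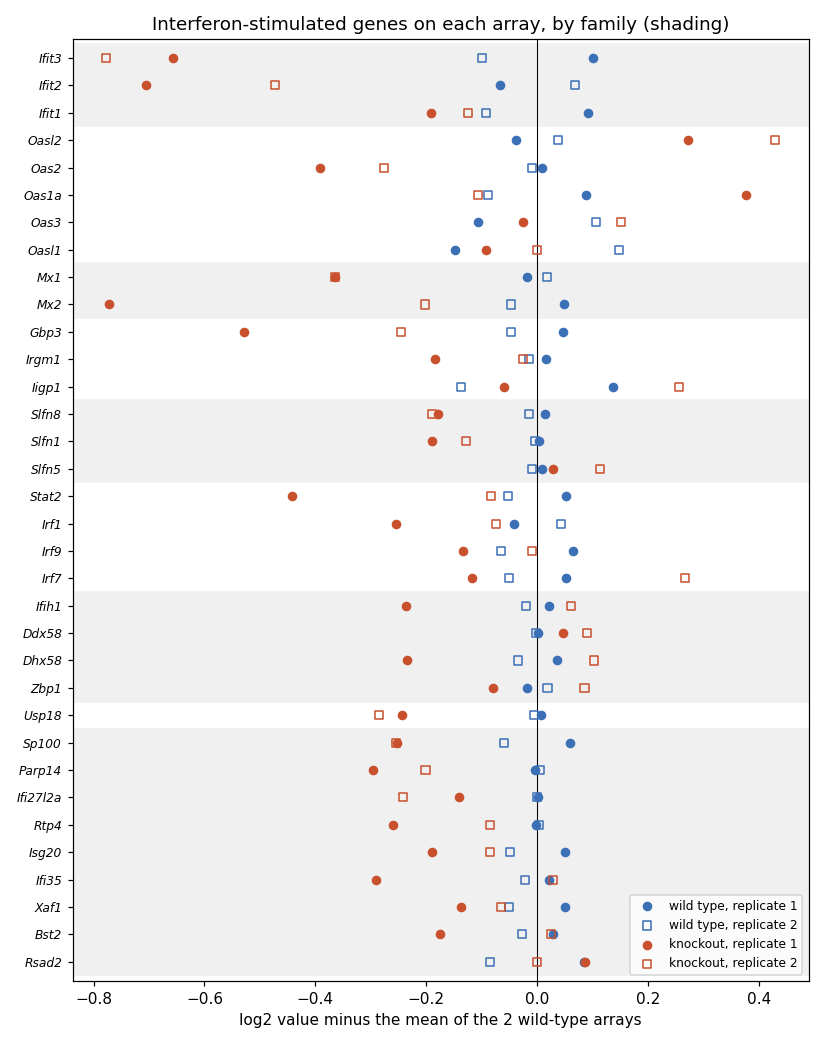
Each row is 1 of the 34 measured interferon-stimulated genes, grouped by family with shading, and the horizontal axis gives the log2 value on each array minus the mean of the 2 wild-type arrays. Knockout replicate 1 (filled red circles) is the lowest of the 4 arrays in 21 rows, and Ifit3 and Ifit2 stand to the left with both knockout arrays.

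Of the interferon-induced GTPases that act on parasite vacuoles, Gbp3, a guanylate-binding protein, read 6.25 and 6.53 in the knockout and 6.82 and 6.73 in the wild type. The groups did not overlap, and the difference of -0.39 did not pass (SE 0.11, limma adjusted p = 0.122), though it did after centring on array medians (-0.47, limma adjusted p = 0.0253). It was -0.25 without knockout replicate 1 (limma adjusted p = 0.264) and -0.53 without knockout replicate 2 (0.0364). Irgm1, which regulates the other immunity-related GTPases, read 7.84 and 8.0 against 8.04 and 8.01 (difference -0.10, limma adjusted p = 0.646). Iigp1, which coats and disrupts vacuoles, read 4.48 and 4.79 against 4.68 and 4.40, so its groups overlapped (difference 0.10, limma adjusted p = 0.762).

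Within each of the Schlafen genes, a family tied to lymphocyte quiescence, the 4 arrays lay close together. Slfn8 read 7.31 and 7.30 in the knockout and 7.5 and 7.47 in the wild type (difference -0.18, SE 0.09, limma adjusted p = 0.349). Slfn1 read 8.68 and 8.74 against 8.87 and 8.87 (difference -0.16, SE 0.09, limma adjusted p = 0.433). Slfn5 read 6.57 and 6.65 against 6.55 and 6.53 (difference 0.07, limma adjusted p = 0.755). In all 3 genes the groups did not overlap, 2 lower and 1 higher in the knockout, and the differences were under 1.2-fold. Of all genes, 23.2% were lower and 24.4% higher without overlap.

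Usp18, the protease that removes ISG15 from proteins and damps the type I receptor, read 6.0 and 5.96 in the knockout and 6.25 and 6.24 in the wild type. The arrays of each genotype agreed within 0.05, the groups did not overlap, and the difference of -0.26 did not pass (SE 0.09, limma adjusted p = 0.187).

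Among the other effectors, Sp100, a protein of nuclear bodies, read 9.34 on both knockout arrays and 9.65 and 9.53 on the wild-type arrays (difference -0.25, SE 0.09, limma adjusted p = 0.218). Parp14, an ADP-ribosyltransferase, read 7.25 and 7.34 against 7.54 and 7.55 (difference -0.25, SE 0.09, limma adjusted p = 0.221). Ifi27l2a, a small interferon-induced protein, read 5.17 and 5.07 against 5.31 and 5.31 (difference -0.19, SE 0.09, limma adjusted p = 0.344). The groups did not overlap in these 3 genes, with the knockout lower, beside 23.2% of all genes, and none passed.

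The remaining effectors lay nearer to 0. Rtp4, a chaperone of receptors, Isg20, an exonuclease that degrades viral RNA, and Xaf1, which promotes cell death, had differences of -0.17, -0.14 and -0.10 with groups that did not overlap. Ifi35 (-0.13), the virus-tethering protein gene Bst2 (-0.08) and Rsad2 (0.04), which encodes viperin, overlapped between the groups. Over the 9 effectors measured, 8 differences were negative, beside 45.9% of all genes and 64.8% of the brighter genes. In 6 of the 9 the groups did not overlap with the knockout lower, beside 23.2% of all genes. By limma 0 were called, beside 2.25% of all genes. An unadjusted limma p under 0.05 was found for 2, both lower, beside 8.75% of all genes on that side.

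The transcription factors of the response differed little. Stat2, the subunit that joins IRF9 in the type I complex, read 6.60 and 6.95 in the knockout and 7.09 and 6.99 in the wild type. Its difference of -0.26 (SE 0.12, limma adjusted p = 0.322) came mostly from knockout replicate 1: it was -0.08 without that array (limma adjusted p = 0.706) and was called without knockout replicate 2 (-0.44, limma adjusted p = 0.0448). Irf1, an early target of interferon gamma, read 8.87 and 9.05 against 9.08 and 9.17 (difference -0.16, SE 0.10, limma adjusted p = 0.463), and its dimmer probe set gave -0.07. Irf9 read 7.57 and 7.69 against 7.77 and 7.64, and Irf7, which amplifies the type I response, overlapped as well, with differences of -0.07 and 0.07. The sign of Irf9 turned after a further quantile normalization (0.00465).

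Of the 4 nucleic acid sensors 0 passed, and none had an unadjusted limma p under 0.05. Ddx58, which encodes the RNA sensor RIG-I, read 8.52 and 8.57 in the knockout and 8.48 and 8.47 in the wild type (difference 0.07, SE 0.09, limma adjusted p = 0.761). Ifih1, which encodes the sensor MDA5, read 6.32 and 6.62 against 6.58 and 6.54 (difference -0.09, SE 0.11, limma adjusted p = 0.750). Dhx58, a relative that tunes both, read 5.0 and 5.34 against 5.27 and 5.20 (difference -0.07, SE 0.12, limma adjusted p = 0.829). In both Ifih1 and Dhx58 knockout replicate 1 was the lowest array and knockout replicate 2 the highest. Zbp1, a sensor of Z-form nucleic acid, differed by 0.0028 (SE 0.10).

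**Figure D2:**
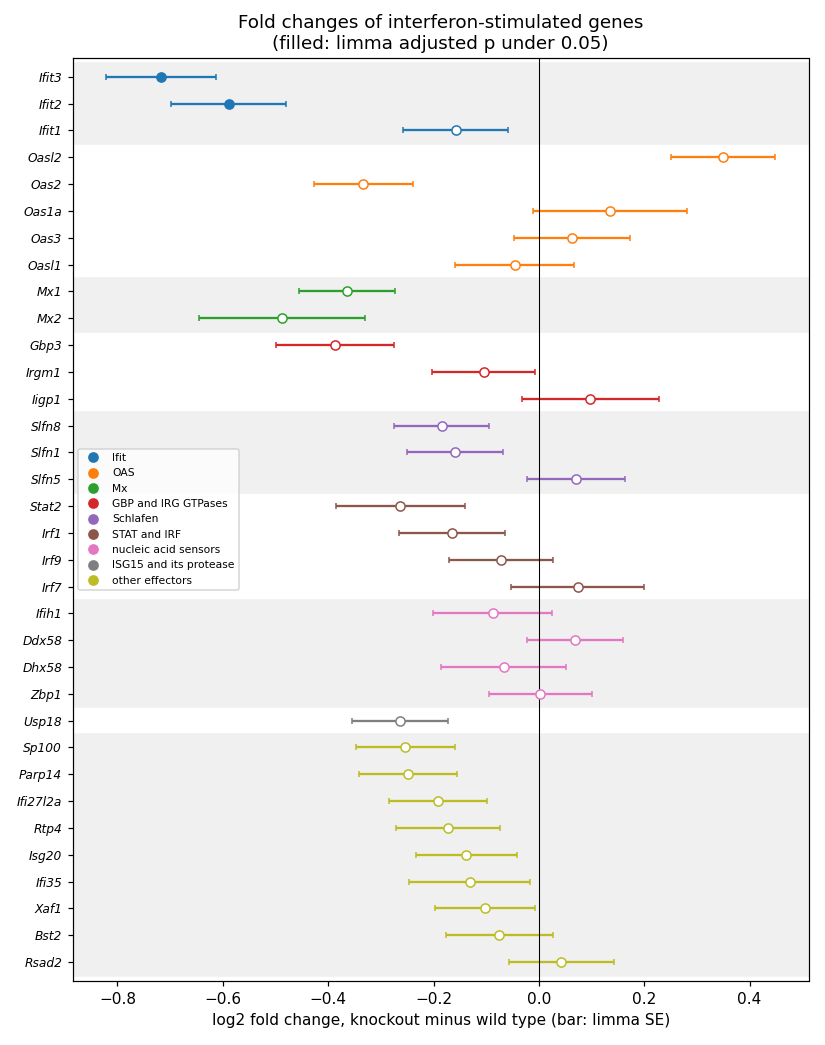
Points are log2 fold changes, knockout minus wild type, of the 34 measured genes with the limma standard error as the bar, coloured by family and filled where the limma adjusted p was under 0.05. Ifit3 (-0.72) and Ifit2 (-0.59) are the filled points, and the OAS family spans -0.33 to 0.35.

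Over the 34 genes the differences ran from -0.72 to 0.35 with a median of -0.13, beside a median of 0.015 over all genes tested. Of the members 25 (73.5%) had a negative difference, beside 45.9% of all genes. The groups did not overlap with the knockout lower in 19 members (55.9%) and with the knockout higher in 3 (8.82%), where all genes gave 23.2% and 24.4%. Of the members 26 were among the 9969 brighter genes, 64.8% of which had a negative difference. No share without overlap was taken among genes of like level. Such genes respond to the same signals and can vary together, and they were listed with earlier results of these data known. The shares thus describe the list and carry no test. Read over the disjoint pairs of like replicate number, 19 members were lower in both knockout arrays, 5 higher in both and 10 mixed, where 29.2% of all genes were lower in both and 32.5% higher in both.

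The knockout arrays did not contribute alike. Knockout replicate 1 was the lowest of the 4 arrays in 21 members and lay below both wild-type arrays in 26, while knockout replicate 2 was the lowest in 6 and lay below both in 20; of all genes, 39.9% and 36.0% lay below both wild-type arrays on these knockout arrays. The median over members of the value minus the wild-type mean was -0.19 for knockout replicate 1 and -0.08 for knockout replicate 2, beside 0.011 and 0.00642 over all genes. Over all probe sets the upper quartile lay at 6.52 on knockout replicate 1 and at 6.63 to 6.67 on the other arrays, and its part in the members' lower values was not tested. The gap between the arrays of a genotype had a median over members of 0.141 in the knockout and 0.08 in the wild type, beside 0.127 and 0.0743 over all genes. The members called were Ifit3 alone without knockout replicate 1, and Ifit2, Ifit3, Mx2, Oas2, Gbp3 and Stat2 without knockout replicate 2. What set the knockout arrays apart was not tested.

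The level of a gene moved with its difference over the whole table. Among the 9969 brighter genes the median difference was -0.06 and 64.8% of differences were negative, and among the 9969 dimmer genes the median was 0.06 and 27.1% were negative. Of the members 26 were among the brighter genes, where 21 had a negative difference and the median was -0.13. The other 8 were among the dimmer genes, where 4 had a negative difference: Ifit3, Mx1, Mx2 and Oas2. These 4 stood 0.33 or more below 0 among genes that lay mostly above it, while Oasl2, Oas1a, Iigp1 and Rsad2 lay above 0 with the other dim genes.

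**Figure D3:**
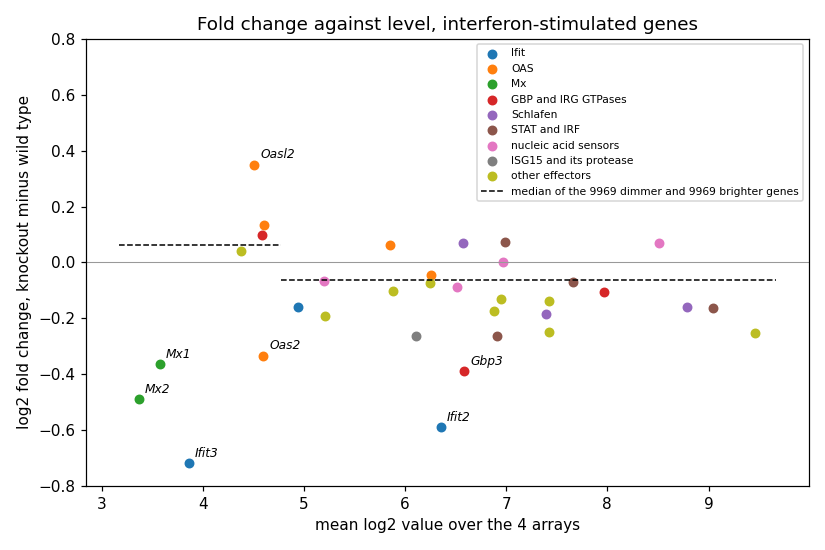
The horizontal axis is the mean log2 value over the 4 arrays, the vertical axis the log2 fold change, knockout minus wild type, and each point is 1 of the 34 genes coloured by family. The dashed lines mark the medians of all dimmer (0.06) and brighter genes (-0.06), and Ifit3, Mx2, Mx1 and Oas2 lie below the dashed line on the left while Oasl2 lies above it.

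The arrays' scaling bore on how many members passed. Centring each array on its median called Gbp3, Mx1, Mx2 and Oas2 besides Ifit2 and Ifit3, all lower, and over all genes calls went from 238 higher and 210 lower (53.1% higher) to 237 higher and 851 lower (21.8% higher). A further quantile normalization called Mx1 (-0.44, limma adjusted p = 0.0451) besides that pair. Under both scalings Ifit2 and Ifit3 remained called. Centring shifts all genes alike, moving the median over all genes from 0.015 to -0.0711, and 6 members close to 0 thereby took negative signs: Slfn5, Ddx58, Oas3, Irf7, Zbp1 and Rsad2.

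Other genes of the pathway were read from 7 lists, of which 90 of 103 genes were measured. Of these 3 rose, 2 fell and 85 did not pass; the 5.56% called stand beside 2.25% of all genes, and the median difference was -0.03. Among 54 further interferon-stimulated genes, 45 were measured, and 2 rose and 0 fell by limma. Before adjustment 5 of the 45 were under 0.05 on the higher side and 7 on the lower side, beside 7.85% and 8.75% of all genes.

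Tdrd7, a Tudor-domain protein with antiviral activity, read 5.49 and 5.58 in the knockout and 4.58 and 4.74 in the wild type (difference 0.87, SE 0.10, limma adjusted p = 0.00158). Ifi44l, a relative of Ifi44, read 4.35 and 4.42 against 3.80 and 3.69 (difference 0.64, SE 0.09, limma adjusted p = 0.00724). Both genes rose on both knockout arrays, so interferon-stimulated genes passed the test in either direction. Their list as a whole had 29 negative differences of 45 and a median of -0.06.

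Irf3, the factor that starts interferon transcription after nucleic acid is sensed, read 6.96 and 6.97 in the knockout and 7.74 and 7.65 in the wild type, a fall of 1.66-fold (difference -0.73, SE 0.09, limma adjusted p = 0.00333). It was the called gene among 7 measured interferon regulatory factors outside the main list. Irf3 lies on chromosome 7, as Klf13 does, and 5 protein-coding genes (Scaf1, Rras, Prr12, Prrg2 and Nosip) separate it in the RefSeq order from Rcn3. Rcn3 read 4.13 and 4.27 in the knockout against 6.42 and 6.48 in the wild type (difference -2.25). Ranked by limma p over all genes, Nkg7, Rcn3 and Klf13, all on chromosome 7, stood 1, 2 and 4, and Mpo on chromosome 11 stood 3. Of the 1734 genes tested on chromosome 7, 2.71% were called, against 2.21% of those on other chromosomes. These shares do not show where on the chromosome the calls lie. Whether sequence linked to the Klf13 allele bears on Irf3 was not tested. Irf7 and Isg20, members on the same chromosome, did not pass.

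Stat4, which carries signals of interleukin 12 and type I interferon in T cells, read 9.22 and 9.17 in the knockout and 9.63 and 9.58 in the wild type. It fell (difference -0.42, SE 0.09, limma adjusted p = 0.0493) and was the called gene among 5 measured kinases and STATs, with a p close to the threshold. The call was lost without knockout replicate 1 (limma adjusted p = 0.0815), without wild-type replicate 1 (0.440) or 2 (0.218), with all single-gene probe sets (0.0520) and after a further quantile normalization (0.0994).

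Cish, a SOCS-family inhibitor of cytokine receptors, read 5.51 on both knockout arrays and 4.96 and 5.04 on the wild-type arrays. It rose (difference 0.51, SE 0.09, limma adjusted p = 0.0218) and was the called gene of 8 signalling inhibitors, a call lost without knockout replicate 1 (0.0626) and without wild-type replicate 1 (0.201). Socs1, the chief inhibitor of interferon receptor kinases, differed by 0.07.

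None of the 6 receptor genes, the 8 interferon genes measured or the 11 sensing adaptors and kinases passed. Before adjustment the limma p was under 0.05 on the lower side for 1 gene in each of these 3 lists and on the higher side for 1, 2 and 0. Over all genes the shares were 8.75% on the lower side and 7.85% on the higher side. The interferon gamma receptor chains differed in opposite directions, Ifngr2 reading 7.23 and 7.42 against 6.86 and 6.96 (difference 0.42, SE 0.10, limma adjusted p = 0.0733) and Ifngr1 differing by -0.31 (limma adjusted p = 0.126). The type I receptor chains Ifnar1 and Ifnar2 differed by -0.04 and 0.0022. Tbk1, the kinase that activates IRF3, read 7.30 and 7.33 against 7.71 and 7.68 (difference -0.38, SE 0.09, limma adjusted p = 0.0660). Ifngr2 and Tbk1 were called among the 9969 brighter genes (limma adjusted p = 0.0342 and 0.0322). Of the interferon genes, Ifna2 read 3.70 and 3.60 in the knockout and 4.10 and 3.82 in the wild type (difference -0.31, limma adjusted p = 0.197). Ifna5 (difference 0.50, limma adjusted p = 0.198) and Ifna4 (0.26, 0.233) were on the other side of 0. None passed, and these genes are near-identical in sequence, so their probe sets are uncertain.

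**Figure D4:**
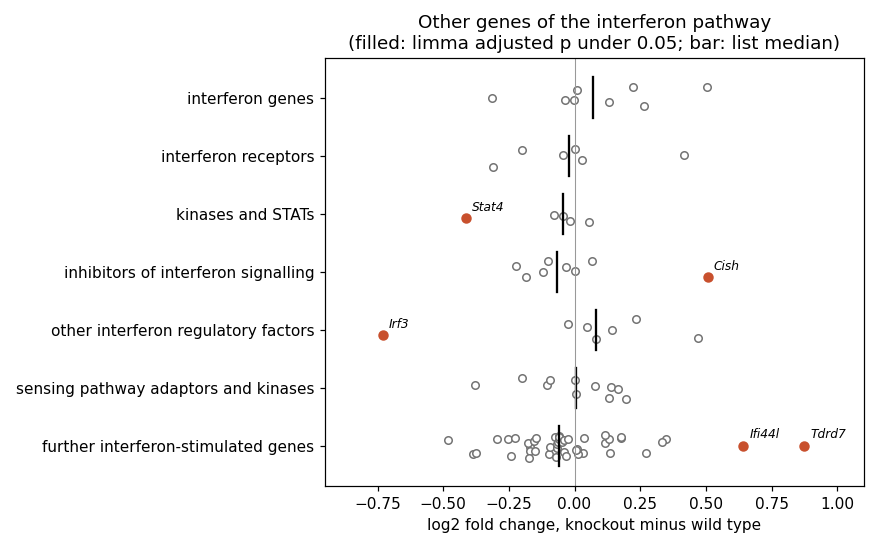
Each point is the log2 fold change, knockout minus wild type, of 1 of the 90 measured genes in 7 lists of the interferon pathway, with list medians as vertical bars and genes with a limma adjusted p under 0.05 filled and named. Tdrd7 (0.87), Ifi44l (0.64) and Cish (0.51) lie to the right and Irf3 (-0.73) and Stat4 (-0.42) to the left, while every list median lies within 0.1 of 0.

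Markers of other cells that a spleen sort could hold differed between the groups beside these results. Over all genes 1.19% were called higher and 1.05% lower. Of 14 neutrophil markers 4 rose (Mpo, Elane, Ctsg and Prtn3, differences 1.60 to 1.97) and 0 fell. The other 10 did not pass, and the median difference of the list was 0.24. The mean log2 value over the list was 4.44 to 4.46 in the knockout and 3.79 to 3.89 in the wild type, a gap that came mostly from those 4 genes. Of 14 myeloid and dendritic markers 5 rose and 0 fell (means of 4.53 to 4.67 and 4.18 to 4.22), and of 13 measured B cell markers 4 rose and 0 fell (5.20 to 5.22 and 4.91 to 4.94). Of 8 measured markers of plasmacytoid dendritic cells, a main source of type I interferon, 0 passed limma, also before adjustment (5.53 to 5.61 and 5.48 to 5.51); Bst2 stands both there and among the members. Of 10 NK cell markers 1 rose (Cd244a, difference 0.55) and 2 fell. The 2 were Nkg7 (-4.47, limma adjusted p = 2.76e-08), which had the smallest p of all genes tested, and Prf1 (-0.89). Values on this scale have no 0, so no marker could be read as absent, and in RNA of a sorted population fewer cells of a type and less RNA per cell cannot be told apart. The part of these cells in the differences of the interferon-stimulated genes was not tested.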

How the data were processed

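Transcript levels were measured on 4 1-colour arrays. The authors deposited log2 probe-set values. The submitters' processing notes name RMA and Partek without versions, and no genome build is given in the sources used here. RMA is usually run with a step that brings the arrays' distributions together, which can remove a shift shared by most genes, but the deposited distributions still differed (upper quartile 6.52 to 6.67). Folds of dim genes are compressed. The number of arrays limits the precision.

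Of 35556 probe sets, the platform annotation paired 21789 with 1 symbol, 1621 with several and 12146 with none. Gene identifiers gave RefSeq names (GRCm38.p6) for 21698 of the single-gene probe sets, and the brightest probe set of each of 19938 genes was kept, with no filter on level. Of the measured members, Irf1 had more than 1 such probe set. A limma 3.58.1 model with genotype alone (R 4.3.3; lmFit, eBayes; two-sided; Benjamini-Hochberg) was fitted to all genes and tested on simulated data. The prior degrees of freedom were 8.06. SE is the limma standard error.

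The members and lists were chosen with earlier results of these data known. Values on each array are given for members past the threshold, for up to 3 members of each family with the smallest p, and for pathway genes past the threshold or with the smallest p of their list; other genes are named as further members, relatives or neighbours. Promoter windows (250 bases before to 50 after each start) were searched on both strands.

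Alternatives were all single-gene probe sets, probe sets averaged by gene, the 9969 brighter genes, a further quantile normalization, centring on array medians, robust moderation with a variance trend, a block for the replicate number, and each array left out in turn.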

Additional observations from a re-analysis of the deposited data

Results flagged for a closer look

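A probe set that the annotation pairs with both Oas1a and Oas1g, and that entered no comparison because it names no single gene, was higher on both knockout arrays (4.91 and 4.84) than on both wild-type arrays (4.30 and 4.32), a difference of 0.569 on the log2 scale. It drew attention as a signal above the control arrays in data not otherwise used, and it was not tested.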

How the results depend on the processing

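The count of all genes called (448), of members called (2) and of pathway genes called (5) moved with the processing, and the cause was not tested. Centring on array medians gave 1088, 6 and 12; the trend with robust moderation gave 831 genes and 14 pathway genes; the 9969 brighter genes, among which Ifit3 was not tested, gave 1 member and 10 pathway genes. Leaving out each array in turn gave 264 to 1536 genes, 1 to 6 members and 3 to 8 pathway genes; the fewest genes were called without knockout replicate 1 and the most without knockout replicate 2, Ifit3 alone of the members was called without knockout replicate 1 and without wild-type replicate 2, and 277 genes were called without wild-type replicate 1. The replicate number as a block gave 1187 genes, 6 members (Oasl2 among them, higher) and 13 pathway genes. The differences between arrays of like number correlated by 0.0074 over genes, so the numbers were not taken to pair the samples. The median of the members stayed negative in every setting (-0.22 to -0.0729). Of 560 values of the members and other named genes under alternatives, 493 kept their direction and side of the threshold, 28 newly passed, 9 no longer passed and 30 turned, all of these for genes not called. After quantile normalization Irf9 (0.00465), Oasl1 (0.0147), Rsad2 (-0.0481) and Ifnar1 (0.0333) turned. After centring Slfn5 (-0.0154), Ddx58 (-0.0178), Oas3 (-0.0231), Irf7 (-0.0123), Zbp1 (-0.0833), Rsad2 (-0.0436), Ifnar2 (-0.0839) and Socs1 (-0.0182) turned. Over the left-out arrays, these ranges crossed 0: Oas1a (-0.107 to 0.377), Ifih1 (-0.237 to 0.0617), Iigp1 (-0.0604 to 0.255), Dhx58 (-0.236 to 0.102), Oasl1 (-0.194 to 0.102), Rsad2 (-0.0423 to 0.127), Bst2 (-0.176 to 0.0255), Ifi35 (-0.291 to 0.0282), Oas3 (-0.0433 to 0.169), Irf7 (-0.118 to 0.266), Zbp1 (-0.0797 to 0.0853) and Ifnar2 (-0.0493 to 0.0536).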

Other observations

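Probe sets that members share with other genes gave further values with no test. The probe set paired with Gbp2 and Gbp2b read 8.23 and 8.24 in the knockout and 8.74 and 8.60 in the wild type, a difference of -0.44. The probe set of Irgm2 and Igtp read 7.47 and 7.45 against 7.65 and 7.68 (-0.20). In both the groups did not overlap, with the knockout lower, beside 23.2% of the 19938 genes measured singly. The probe set paired with Isg15 and Gm9706 read 3.90 and 3.75 against 3.90 and 4.01 (-0.13), and knockout replicate 1 lay level with wild-type replicate 1. These values belong to the pairs of genes and not to either gene.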
